A study of Mus musculus with 19 samples.

Results

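Sorted glial cells of the mouse sciatic nerve at birth were set against those of the same nerve at embryonic day 12, across all genes of an oligonucleotide array. The arrays were chosen by their stage labels: 3 labelled P0, the day of birth, and 3 labelled E12, which makes 6 of the 19 arrays of the series. The P0 cells are called Schwann cells in the labels and the E12 cells Schwann cell precursors. Animals of both stages carried green fluorescent protein driven by a glial promoter that is also active in neural crest stem cells, and fluorescent cells were sorted from dissected nerves. The cells compared are therefore those in which that transgene is on. The remaining 13 arrays hold trunk neural crest stem cells of E9.5 and nerve cells of E14, E16 and E18. Target RNA went through 2 rounds of in vitro transcription before hybridization to Affymetrix arrays.

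Schwann cells are the glia of peripheral nerves. They arise from neural crest through precursors that migrate along growing axons and depend on axonal signals for survival. Precursors turn into immature Schwann cells, which divide, lay down a basal lamina and sort axons. Around birth, those paired with large axons leave the cell cycle and begin to make myelin, a multilayered membrane rich in cholesterol and in a few structural proteins. The P0 arrays thus lie near the onset of myelination in this nerve, and the E12 arrays before the immature stage.

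Each value below is the deposited expression index of a probe set, an intensity on a linear scale. Values are given in the order of replicates 1, 3 and 4 for P0 and 1, 2 and 4 for E12. Indices below 68.5, the 25th percentile of the table, were raised to that floor before log2 was taken. A log2 change is the fitted P0 minus E12 difference with its standard error (SE). A fold is its antilog, a ratio of geometric means of the floored values. It is written "at least" where an array of the lower stage was at the floor, unless the ratio of the floored stage means was smaller. A gene is said to have risen or fallen where the Benjamini-Hochberg adjusted p of limma, over all 10414 probe sets tested, was under 0.05. The labels are silent on whether separate litters or animals stand behind the arrays of one stage, and the p-values therefore cover only the spread among arrays. That spread, and with it the SE, was estimated over all 19 arrays of the series, not from the P0 and E12 arrays alone. A fit of the 6 arrays alone called 430 probe sets in place of 1705. A lower level in such sorted samples can mean fewer cells of a type or less RNA per cell, which cannot be told apart here.

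The 3 P0 arrays were less alike than the 3 E12 arrays. Rank correlations of the floored values within a stage ran from 0.886 to 0.929 at P0 and from 0.960 to 0.981 at E12. Each P0 array was closer to an array of E16 or E18 than to another P0 array, with rank correlations of 0.943 to 0.962. This closest array was of the same lot as the P0 array in all 3 cases. For GAPDH, the array carries control probe sets at both ends of the transcript, and a high 3'/5' signal ratio marks short amplified RNA. This ratio was 7.69, 6.80 and 4.69 at P0 and 4.53, 4.23 and 3.18 at E12, so the stages did not overlap in it. The labels give each array a lot number, and both stages have an array of lot 1 and one of lot 4. Of the markers of the Schwann lineage, the transcription factor Sox10 read 1243, 3256 and 2522 on the P0 arrays and 1888, 2207 and 2694 on the E12 arrays. Erbb3, a neuregulin receptor subunit, read 1679.8, 3580.2 and 3972 on the P0 arrays and 3066, 3768 and 4056 on the E12 arrays. Neither passed the test, with adjusted p of 0.98 for Sox10 and 0.5 for Erbb3. S100b, a widely used marker of Schwann cells, was at the floor on all 3 E12 arrays and on 2 of the 3 P0 arrays, with 31.4, 34.0 and 149 at P0.

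Of the 10414 probe sets tested, 472 (4.53%) were higher at P0 and 1233 (11.8%) were lower, 1705 (16.4%) in all. With the arrays quantile-normalized, 756 were higher and 1109 lower, so the higher share of the calls was 40.5% in place of 27.7%. With the GAPDH ratio of each array as a covariate, 554 were higher and 655 lower, and 914 of the 1705 probe sets stayed among the calls. Leaving out P0 replicate 4 gave 674 higher and 2120 lower, and leaving out E12 replicate 2 gave 300 and 764. Without E12 replicate 1 there were 302 higher, and without P0 replicate 1 or 3 there were 800 or 770 lower. Of the 472 rises and 1233 falls of the main fit, 234 and 787 reached 2-fold. In the same order, 84 and 134 reached 4-fold, and 12 and 8 reached 16-fold. The called probe sets stood for 394 genes that rose and 1043 that fell. Where a gene had several probe sets and at least 1 was called, every one was called for 24 of 144 genes that rose and 58 of 304 that fell, and 0 genes were called in both directions.

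**Figure D1:**
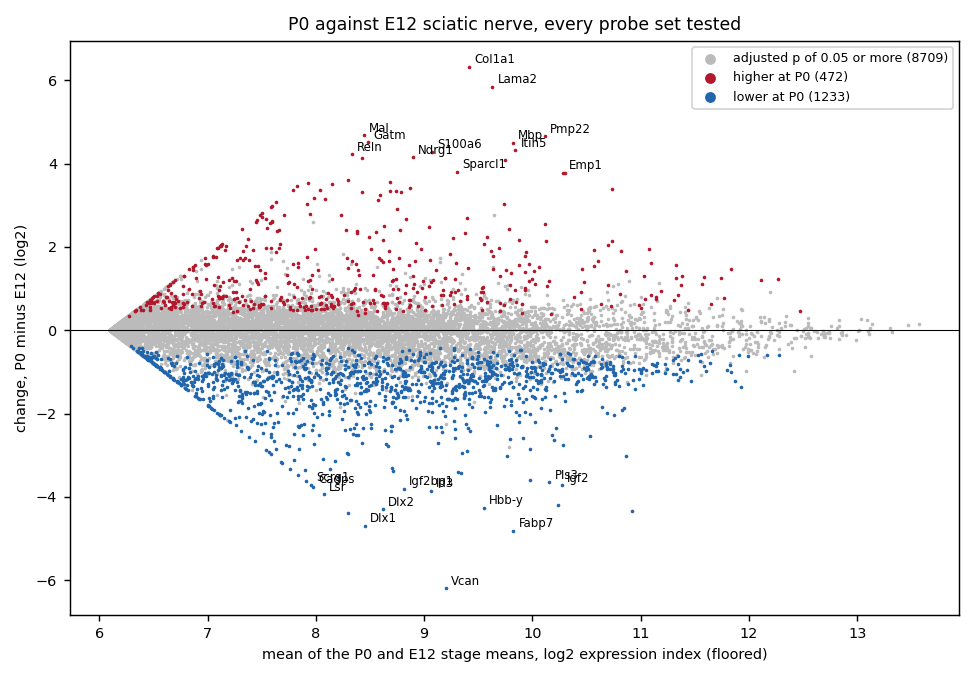
Fitted change of every probe set tested (P0 minus E12, log2, vertical axis) against the mean of the 2 stage means (log2 of the floored index, horizontal axis). Red points are the 472 higher at P0, blue points the 1233 lower, grey points the rest. The 12 largest rises and falls with a single gene symbol are labelled, from Col1a1 at 6.32 to Vcan at -6.20; the straight edges on the left are probe sets with a whole stage at the floor.

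The largest rise was that of Col1a1, the alpha-1 chain of type I collagen. It read 4836, 7827 and 5959 on the P0 arrays and 75.3, 85.6 and 40.9 on the E12 arrays, and every P0 array exceeded every E12 array by more than an order of magnitude (at least 79.9-fold, log2 change 6.32, SE 0.21). Next came Lama2, the laminin alpha-2 chain of the Schwann cell basal lamina, whose loss causes a congenital muscular dystrophy with neuropathy. It read 5023, 6593 and 6482 on the P0 arrays and 101, 90.3 and 125 on the E12 arrays, a 57.4-fold rise (log2 change 5.84, SE 0.18). A second Col1a1 probe set rose as well, by 4.09 on the log2 scale.

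Of the 25 genes with the largest rises, 16 belonged to a gene list used here and 9 to none. Itih5, a heavy chain of the inter-alpha-trypsin inhibitor family, read 3062, 4413 and 5084 on the P0 arrays and 206, 230.3 and 183 on the E12 arrays (log2 change 4.32, SE 0.23). Sparcl1, a secreted matrix glycoprotein, read 1487, 2190.2 and 4056 on the P0 arrays and 208, 109 and 212 on the E12 arrays (log2 change 3.81, SE 0.37). Emp1, a membrane protein related to Pmp22, read 3951, 6495 and 3834 on the P0 arrays and 562, 431 and 159 on the E12 arrays (log2 change 3.77, SE 0.38). In these 3 genes the stages were apart, as the choice of the 25 genes required, and the spread among P0 arrays was under 3-fold. Aatk, a membrane-bound kinase, was already above the floor at E12 and rose 10.5-fold, with 5314, 6015 and 5292 at P0 and 676, 314 and 688 at E12. Ank3, or ankyrin-G, which anchors channels and adhesion molecules to the spectrin skeleton, rose at least 11.5-fold (log2 change 3.52, SE 0.34). Lpar1, a receptor for lysophosphatidic acid, was at the floor on every E12 array and read 439.9, 684 and 1406 at P0. Sh3gl3, an endophilin of endocytosis, Rarres2, the precursor of chemerin, and Sdc4, a heparan sulfate proteoglycan, rose 11.4-fold, 10.2-fold and 10.04-fold. The index of Sdc4 ranged from 634 to 3618 across the P0 arrays, and its adjusted p was 0.06 in a fit of the 6 arrays alone.

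The largest fall was that of Vcan, the chondroitin sulfate proteoglycan versican. It was listed at 0 on all 3 P0 arrays and read 4907, 4441 and 5852 on the E12 arrays, at least 73.5-fold lower against the floor (log2 change -6.20, SE 0.36). Fabp7, the brain fatty acid-binding protein and a marker of precursor glia, read 144, 85.6 and 404 on the P0 arrays and 4819, 4270.2 and 5376 on the E12 arrays, a 28.1-fold fall. Dlx1 and Dlx2, neighbouring homeobox genes, fell together. Dlx1 read 14.1, 0 and 59.5 on the P0 arrays and 1273, 1682 and 2646 on the E12 arrays. Dlx2 read 65.4, 25.6 and 147 on the P0 arrays and 1404, 1545 and 2434 on the E12 arrays. Their log2 changes were -4.70 (SE 0.79) and -4.30 (SE 0.40).

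Of the 25 largest falls, 9 were also in none of the lists. Lsr, the lipolysis-stimulated lipoprotein receptor, read 58.7, 13.97 and 14.5 on the P0 arrays and 961, 1215 and 989.9 on the E12 arrays (log2 change -3.94, SE 0.16), while a second probe set of it fell by 0.63. Crabp2, which carries retinoic acid in the cytoplasm, read 19.1, 13.4 and 22.7 on the P0 arrays and 653, 705 and 967 on the E12 arrays, so that all P0 arrays lay under the floor. Scrg1 followed the same pattern with 25.1, 19.9 and 6.84 on the P0 arrays and 967, 904 and 816 on the E12 arrays. Pls3, an actin-bundling plastin, read 341, 203 and 481 on the P0 arrays and 3777, 3797 and 4598 on the E12 arrays. Enah, which promotes filament growth, read 20.6, 13.6 and 48.2 on the P0 arrays and 533, 635 and 709 on the E12 arrays. Tes, a LIM protein of focal adhesions, fell at least 12.3-fold on 1 probe set, but its other probe set was not called (log2 change 0.19), as for Enah (0.42). Actn1, alpha-actinin, read 1419.6, 51.0 and 79.5 on the P0 arrays and 2190.2, 2469 and 1803 on the E12 arrays. P0 replicate 1 stood just below the E12 arrays, and the adjusted p was 0.073 without P0 replicate 3. Tcf4, a basic helix-loop-helix factor, read 369.8, 65.4 and 87.0 on the P0 arrays and 1465, 1448 and 1158 on the E12 arrays (log2 change -3.37, SE 0.46), with P0 replicate 1 well above the other P0 arrays. Sh3rf1, a scaffold with ubiquitin ligase activity, fell 10.6-fold.

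**Figure D2:**
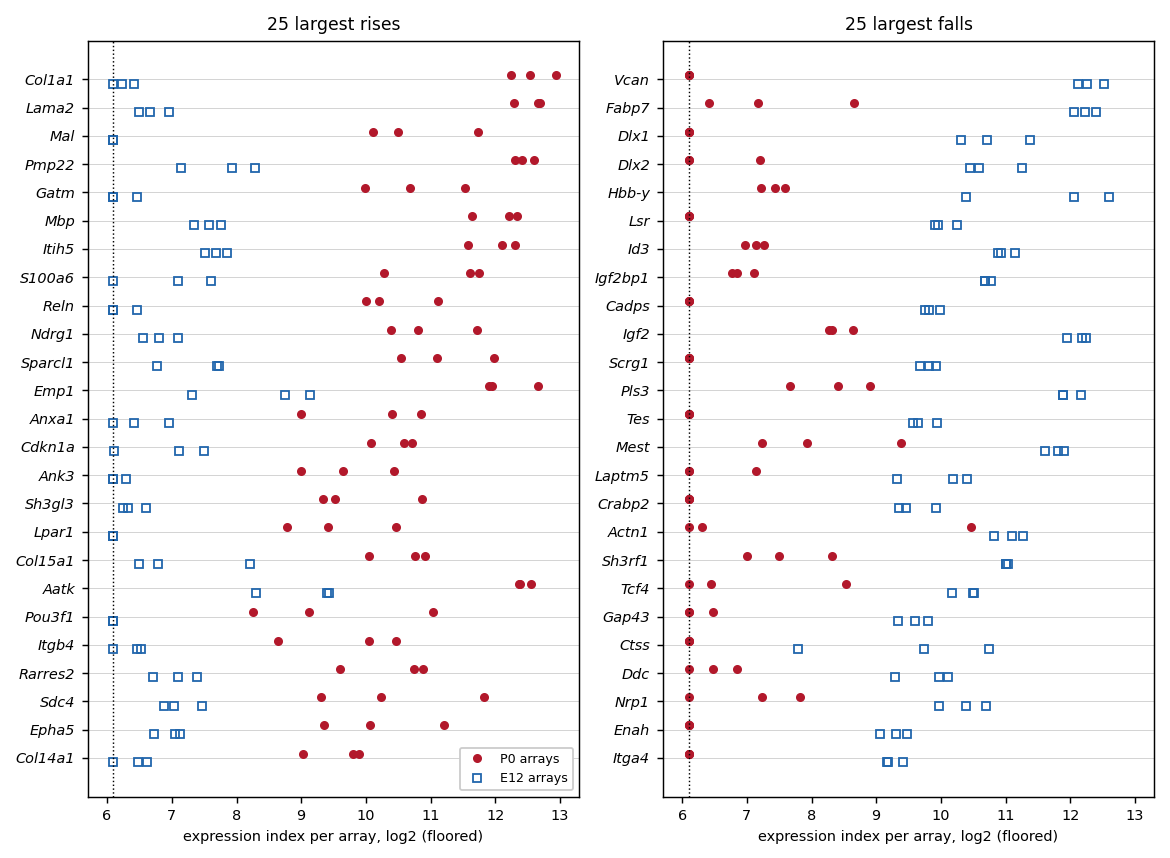
Expression index on each array (log2 of the floored value, horizontal axis) for the 25 largest rises (left) and the 25 largest falls (right), one gene per row. Filled red circles are the 3 P0 arrays, open blue squares the 3 E12 arrays, and the dotted line is the floor. The stages are separate in every row, as the choice of genes required, while the P0 arrays of Actn1, Tcf4 and Pou3f1 are widely spread.

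The spread within P0 differed by array. Among the 25 largest rises, P0 replicate 1 was the lowest P0 array for 21 genes and P0 replicate 4 the highest for 17. Over all probe sets called, the median rise above the E12 mean was 0.88, 1.00 and 1.17 on P0 replicates 1, 3 and 4. The median fall was -1.40, -1.36 and -0.69, so replicate 4, the P0 array with the lowest GAPDH ratio, lay closest to E12 for the genes that fell. Within lot 1 and within lot 4 the direction of all 50 genes was fixed by their choice, which required no overlap between the stages. Of these genes, 45 were called in each of the 20 alternative fits, and choosing the largest changes favours this.

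Beyond the 25, a gene was counted as switched on where all E12 arrays were at the floor and all P0 arrays above 2 times the floor, and as switched off in the reverse case. There were 14 probe sets of the first kind and 34 of the second. Lgr5, a receptor for R-spondins, was switched on with 283, 555 and 1209.7 at P0 and 24.8, 28.4 and 22.0 at E12. Thbd, thrombomodulin, read 435, 532 and 666 on the P0 arrays and 24.5, 15.9 and 4.23 on the E12 arrays, and its second probe set was not called (0.73). Fst, which binds and blocks activin, read 343, 425 and 694 on the P0 arrays and 52.2, 56.9 and 34.9 on the E12 arrays. Among those switched off were Vcan, Dlx1, Crabp2 and Cadps, which primes secretory vesicles and read 56.5, 40.7 and 36.7 on the P0 arrays and 862, 898 and 1018 on the E12 arrays. The other Cadps probe set fell less, by 1.44.

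The myelin genes rose furthest as a group: 9 of 14 tested rose and 0 fell, with a median log2 change of 1.82. Among all 7414 genes, with 1 probe set each, 4.72% rose and 12.9% fell, and the median was -0.03. These are the shares to set beside the counts of every list below. Pmp22, a tetraspan myelin protein whose duplication causes the commonest inherited demyelinating neuropathy in humans, read 5075, 5469.6 and 6184 on the P0 arrays and 244, 140.5 and 313 on the E12 arrays (25.2-fold, log2 change 4.66, SE 0.26). Mbp, which holds the cytoplasmic faces of the myelin membrane together, read 3206, 4747 and 5169.9 on the P0 arrays and 191, 218 and 163 on the E12 arrays (22.6-fold). A second Mbp probe set rose by 0.56. Mal, a raft protein of myelin vesicles, was at the floor at E12 and reached 1109, 1439.7 and 3401 at P0. All 3 genes are among the 25 largest rises, whose choice required the stages to be apart. The spread within P0 was widest for Mal.

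Ndrg1, mutated in a human demyelinating neuropathy, rose 17.8-fold with 1334, 1782 and 3366 at P0 and 111, 137 and 93.6 at E12. Cd9, a tetraspanin, Cldn11, a claudin of myelin tight junctions, and Cryab, a small heat shock protein, rose 5.86-fold, 6.12-fold and 3.93-fold. The median of the list was 0.88 within lot 1 and 2.37 within lot 4, and 9 genes rose with any 1 P0 array left out.

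Transcription factors of the lineage moved both ways. Pou3f1, a POU factor of promyelinating cells, was at the floor at E12 and read 305, 556 and 2098 at P0, with replicate 4 several times above the others. Its rise was at least 10.3-fold (log2 change 3.37, SE 0.60), with an adjusted p of 0.07 in a fit of the 6 arrays alone. Egr2, which switches on myelin genes, read 3007, 1958 and 4379 on the P0 arrays and 1234, 549.5 and 695 on the E12 arrays (log2 change 1.93, SE 0.38, adjusted p 0.0021). Pou3f2, a relative of Pou3f1, rose 1.42-fold. In all, 3 of the 18 genes on this list rose and 4 fell, or 2 without P0 replicate 1. Nab1, a co-repressor that binds Egr2, fell 2.88-fold with 534, 529.6 and 583 at P0 and 1457, 1987 and 1362 at E12. Yap1, the Hippo pathway effector, fell 2.24-fold, Notch1 2.00-fold and Yy1 1.87-fold, whose second probe set was not called (0.15). The fall of Yap1 was not called in the fit of the 6 arrays alone, and those of Notch1 and Yy1 were lost in several alternative fits.

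Of 17 genes of the precursor stage 6 fell, 1 rose and 10 did not pass the test, with a median of -0.34. Gfra3, the receptor subunit for artemin, read 250.5, 366 and 311 on the P0 arrays and 2541, 2315 and 2589 on the E12 arrays (8.12-fold, log2 change -3.02, SE 0.22). Gap43, a membrane protein of growth cones and of young Schwann cells, read 42.8, 89.3 and 52.3 on the P0 arrays and 644, 891 and 776 on the E12 arrays. Cdh2, or N-cadherin, fell 4.99-fold, and Tfap2a, a neural crest factor, 2.19-fold. Dhh, the desert hedgehog signal that Schwann cells send to the perineurium, rose 4.42-fold with 2352, 4471 and 4366 at P0 and 832, 748 and 854 at E12. A second Dhh probe set was not called (0.38). A list for the immature stage held 4 rises and 1 fall among 18 genes. Besides Dhh and Pou3f1 these were Entpd2, an enzyme that splits extracellular ATP, at 2.22-fold, and Fxyd1, a regulator of the sodium pump, at 2.33-fold. Another Entpd2 probe set was at the floor on every E12 array and read 320, 479 and 729 at P0, at least 7.03-fold higher. Gap43 was the one that fell.

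The number of lipid synthesis genes called changed with the fit. Among all genes 4.72% rose and 12.9% fell. Of 17 genes of cholesterol synthesis 2 rose and 0 fell. Fdps, which makes farnesyl diphosphate, read 657, 761 and 1771 on the P0 arrays and 334, 497 and 407 on the E12 arrays, with the highest value on replicate 4. Msmo1, a sterol oxidase, read 759, 367 and 1823 on the P0 arrays and 306, 252 and 258 on the E12 arrays. The mean over the list relative to E12 was 0.21, -0.03 and 1.19 on P0 replicates 1, 3 and 4, so replicate 4 stood furthest above E12. Without replicate 4, Fdps and Msmo1 lost their calls (adjusted p 0.059 and 0.072), and 1 other gene rose and 1 fell. Without replicate 3, 4 genes rose, and with the GAPDH covariate 5 rose. Of 19 genes of fatty acid and sphingolipid synthesis, Scd1, Degs1 and Scd2 rose, by 2.25-fold, 1.41-fold and 1.38-fold. Scd1 and Scd2 are desaturases, and Degs1 makes the double bond of ceramide. Without P0 replicate 4, 1 gene of this list rose and 3 fell, and without replicate 3, 1 rose and 1 fell. With the GAPDH covariate 6 rose and 1 fell, and under quantile normalization 5 rose and 1 fell. Acsl4, an acyl-CoA synthetase that prefers arachidonate, fell, with 59.5, 71.0 and 158 at P0 and 811, 745 and 795 at E12. Gatm, the first enzyme of creatine synthesis, rose at least 22.8-fold with 1012, 1648 and 2955 at P0 and 88.5, 34.8 and 35.6 at E12. The lowest P0 value of Gatm was more than 10 times the highest E12 value. Of 22 genes of lipid uptake and breakdown 1 rose and 4 fell, beside 4.72% and 12.9% of all genes. Besides Fabp7 these falls were Plin2, which coats lipid droplets, at 3.37-fold, Abca1, which exports cholesterol, at 2.56-fold, and Fabp5, a fatty acid-binding protein, at 1.99-fold. In amino acid and one-carbon metabolism Mthfd2, a mitochondrial folate enzyme, fell 4.38-fold, with 122, 253 and 344 at P0 and 1022, 1945 and 447 at E12. Odc1, which starts polyamine synthesis, fell 3.14-fold, and Sat1, which breaks polyamines down, rose 2.15-fold.

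Of 33 laminins, basement membrane components and receptors, 10 rose and 2 fell, beside 4.72% and 12.9% of all genes, with a median of 0.51 (0.44 within lot 1 and 0.97 within lot 4). Besides Lama2, the laminin chains Lamc1 and Lamb1 rose 2.40-fold and 2.38-fold. Lamc1 read 4263, 5341 and 4677 on the P0 arrays and 1908, 1757 and 2288 on the E12 arrays. Col4a1 and Col4a2, which form the common type IV collagen, rose 2.31-fold and 1.82-fold. Col15a1, a collagen at the face of basement membranes, read 1053, 1729 and 1927 on the P0 arrays and 296, 90.3 and 110.2 on the E12 arrays. Among receptors, Itgb4, the laminin-binding integrin beta-4 chain, rose at least 10.3-fold, with 399.8, 1061 and 1418 at P0 and 91.8, 88.0 and 38.6 at E12. Dag1, dystroglycan, rose 2.48-fold and Itga7, an integrin alpha chain for laminin, 2.02-fold. The 2 that fell were Agrn, agrin, at 3.59-fold, and Col18a1 at 1.93-fold; another Agrn probe set was not called (0.71).

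Of 42 fibrillar collagens and other matrix genes, 14 rose and 3 fell. Col3a1 and Col1a2, the partners of Col1a1 in collagen fibres, rose 2.76-fold and 2.34-fold. Col1a2 read 6810.5, 8056 and 7778 on the P0 arrays and 2830.2, 3464 and 3396 on the E12 arrays, and unlike Col1a1 it was abundant at E12. Another Col1a2 probe set was not called (-0.15). Col14a1, which coats fibrils, rose at least 9.06-fold, and Col8a1, Col6a3 and Col11a1 rose at least 5.38-fold, at least 3.96-fold and at least 3.94-fold against E12 arrays at or near the floor. Reln, a secreted glycoprotein best known in brain layering, read 1172, 1029.6 and 2219 on the P0 arrays and 38.7, 19.8 and 88.2 on the E12 arrays, although its second probe set was not called (0.47). Tnc, tenascin-C, rose 5.00-fold and Matn2, matrilin-2, 3.88-fold. Lox, which cross-links collagen, rose at least 4.16-fold on 1 probe set and read a change of 0.00 on another. Beside Vcan, the falls were Fn1, fibronectin, with 671, 579.7 and 272 at P0 and 3244, 3366 and 2339 at E12, and Mfap2, of microfibrils, at 3.04-fold. Among the 28 genes whose symbols start with Col, 13 rose and 1 fell. Of these rises, those of Col12a1 and Col9a3 were lost in 13 and 8 alternative fits. Each of the 2 genes had another probe set that was not called (0.57 and 0.44).

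The list of fibroblast and perineurial markers shared Col1a1, Col1a2 and Col3a1, and these were the 3 of 15 that rose. Its summed index was 21423 to 27550 at P0 and 9250 to 11023 at E12. The other 12 did not pass the test. Among them Fbln1, a matrix protein of fibroblasts, read 953, 803 and 672 on the P0 arrays and 965, 926 and 1049 on the E12 arrays. Pdgfra, their growth factor receptor, read 210.2, 168 and 121 on the P0 arrays and 131, 133 and 102 on the E12 arrays. Lum, Twist1, Mfap5, Cldn1 and Prrx1 were at the floor on all P0 arrays, and Mfap5, Cldn1 and Prrx1 on all E12 arrays too. Log2 changes of the 12 ran from -0.40 for Slc2a1 to 0.87 for Dcn, and the median of the list was 0.05. The part of such cells in the collagen rises was not tested.

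Of 34 matrix proteases and their inhibitors 7 fell and 2 rose, beside 12.9% and 4.72% of all genes. Ctsl, cathepsin L, read 317, 302 and 549 on the P0 arrays and 2766, 2691 and 2634 on the E12 arrays. Adam12, Adam19 and Mmp16, membrane-bound metalloproteases, fell at least 2.46-fold, 2.29-fold and at least 1.95-fold. Timp2, an inhibitor of matrix metalloproteases, rose 4.38-fold with 2462, 1968 and 2643 at P0 and 481, 481 and 658 at E12, but its other probe set was not called (0.72). Prss23, a serine protease, rose 3.67-fold.

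Of 33 adhesion genes 5 fell and 2 rose, shares close to those among all genes. Gja1, the gap junction protein connexin 43, read 1179, 404 and 585 on the P0 arrays and 5135, 5121 and 5643 on the E12 arrays. Itga4, the integrin alpha-4 chain that binds fibronectin, read 14.7, 16.1 and 44.4 on the P0 arrays and 582, 578 and 679 on the E12 arrays. Cdh6 and Nectin3 fell 5.75-fold and 2.44-fold. Cntn1, contactin, and Nrcam, both of the immunoglobulin family, rose 2.30-fold and at least 1.81-fold, and both lost their call without P0 replicate 4 (adjusted p 0.083 and 0.051).

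Among 38 guidance genes 6 fell and 3 rose. Nrp1, a receptor for class 3 semaphorins and VEGF, read 150.1, 68.4 and 227 on the P0 arrays and 1344, 999.7 and 1658 on the E12 arrays (log2 change -3.30, SE 0.37). Efnb2, a membrane ephrin, fell at least 8.61-fold with 6.57, 71.6 and 89.6 at P0 and 879.9, 543 and 586 at E12. Collapsin response mediators fell with them, Dpysl4 7.88-fold, Crmp1 4.79-fold and Dpysl3 at least 2.84-fold. Epha5, an ephrin receptor, read 656, 1067 and 2365 on the P0 arrays and 133, 105 and 140.0 on the E12 arrays, a rise not shared by its second probe set (0.61). Sema3b, a secreted semaphorin, rose at least 6.04-fold. The shares called in this list were close to those among all genes.

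Growth factor genes fell in 9 and rose in 5 of 46, beside 12.9% and 4.72% of all genes. Of the falls, 5 were in the insulin-like growth factor system. Igf2, the fetal growth factor, read 308, 399 and 319 on the P0 arrays and 4664, 4872 and 3945 on the E12 arrays (13.2-fold, log2 change -3.72, SE 0.74). Igf1r, its signalling receptor, and Igf2r, which clears it, fell 3.03-fold and 4.17-fold, and the binding proteins Igfbp4 and Igfbp2 5.19-fold and 2.55-fold. Igf2bp1, an RNA-binding protein named for Igf2 mRNA, read 115, 109 and 138 on the P0 arrays and 1638, 1744 and 1645 on the E12 arrays. All P0 arrays of these 6 genes lay below all E12 arrays, which the choice of Igf2 and Igf2bp1 among the largest falls required. The stages did not overlap in 27.6% of all 10414 probe sets tested and in 1605 of the 1705 called, so most called genes share this. Mdk, midkine, and Kitl, stem cell factor, fell 5.99-fold and 6.15-fold, while Ptn, the relative of midkine, rose at least 2.88-fold in a call that many alternative fits lost. Pdgfa rose 3.05-fold, with 4186, 3424 and 3872 at P0 and 1196, 1483 and 1106 at E12.

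Imprinted genes of fetal growth held 7 falls and 0 rises of 18, with a median of -0.34 (-0.52 within lot 1 and -0.22 within lot 4). Mest, a putative hydrolase expressed from the paternal copy, read 243, 151 and 666 on the P0 arrays and 3574, 3137 and 3839.9 on the E12 arrays. Nnat fell at least 6.67-fold, Grb10, an adaptor that restrains insulin receptor signalling, 3.76-fold, Magel2 2.71-fold and Peg3 1.99-fold. The count was 7 or 8 with any P0 array left out, under quantile normalization and with the GAPDH covariate.

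Of 41 genes of the TGF-beta and BMP pathways, 11 fell and 3 rose. Id3 and Id1, helix-loop-helix inhibitors switched on by BMP signals, fell 14.5-fold and at least 3.68-fold. Id3 read 126, 141 and 154 on the P0 arrays and 1947, 2274 and 1885 on the E12 arrays. Mstn, myostatin, fell 5.76-fold, with 118, 78.3 and 102 at P0 and 370.4, 1199.7 and 403 at E12. The BMP receptor Bmpr1a, the activin receptor Acvr2b and the signal transducers Smad1 and Smad4 fell 3.33-fold, 2.67-fold, 2.25-fold and 2.58-fold, and so did the inhibitors Smad6 and Smad7 (1.67-fold and 1.92-fold). Fst, Inha and Ltbp3, which bind ligands of this family or form part of one, rose at least 6.80-fold, 1.73-fold and 1.54-fold.

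Wnt pathway genes fell in 7 and rose in 1 of 34. Among all genes 12.9% fell and 4.72% rose, which applies to each list of this paragraph. Dkk2, a secreted modulator, read 6.19, 36.2 and 35.9 on the P0 arrays and 529.5, 402 and 606 on the E12 arrays. Sfrp1, a secreted antagonist, read 154, 243 and 444 on the P0 arrays and 1206, 1488 and 2002 on the E12 arrays. The transcriptional co-repressor Tle1 fell 5.06-fold, the receptors Fzd3 and Fzd2 2.69-fold and 2.38-fold, and Ctnnb1, beta-catenin, 2.33-fold. Wnt6 was the one that rose (at least 2.96-fold). Of 17 Notch pathway genes Notch3, Notch1 and Psen2 fell, and Hey1, a target of the pathway, rose 2.72-fold. Of 27 Hox genes 5 fell and 0 rose. Hoxa5 read 189.8, 65.8 and 98.4 on the P0 arrays and 590.1, 582 and 545 on the E12 arrays, and Hoxb6 fell at least 4.65-fold. Without P0 replicate 3, 2 fell, and without P0 replicate 4, 3 rose. Of 35 other homeobox and LIM genes 4 rose and 3 fell: Pbx3, a Hox partner, fell 4.54-fold, and Csrp2, Cux1, Pitx1 and Lmo1 rose 3.54-fold, 2.01-fold, 1.98-fold and 1.68-fold.

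Among the lists, those of cell division held the highest shares of falls. Of 40 genes of mitosis 23 fell and 0 rose (median -1.05), and of 39 genes of DNA replication 17 fell and 0 rose (median -0.91). Within lots 1 and 4 the medians were -1.27 and -0.95 for mitosis and -0.95 and -0.48 for replication. With the GAPDH covariate 14 and 10 genes fell, with medians of -0.80 and -0.36. Without P0 replicate 4, 24 genes of DNA replication fell.

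Ccnb2, a B-type cyclin that brings cells into mitosis, read 458, 641 and 704 on the P0 arrays and 1813, 1919 and 1565 on the E12 arrays (log2 change -1.57, SE 0.17). Cks1b, a subunit of cyclin-dependent kinases, read 267, 233 and 445 on the P0 arrays and 1019, 1102 and 1037 on the E12 arrays. Aurka, the spindle kinase aurora A, read 59.3, 71.8 and 76.1 on the P0 arrays and 252, 249.0 and 206 on the E12 arrays. Ttk, a spindle checkpoint kinase, read 28.6, 111 and 104 on the P0 arrays and 266, 256 and 309.9 on the E12 arrays. The stages did not overlap in these 4 genes, and the falls were 2.98-fold, 3.48-fold, at least 3.25-fold and 2.99-fold. Such separation was also seen in 1605 of all 1705 probe sets called, and in 27.6% of those tested. Kif20a, a motor of cytokinesis, read 55.3, 261 and 234 on the P0 arrays and 728, 919 and 824 on the E12 arrays (log2 change -2.35, SE 0.36). Smc2, a condensin subunit, fell 3.57-fold. In DNA replication, Gmnn, or geminin, which prevents a second round of licensing, read 111, 161 and 259 on the P0 arrays and 862, 830.4 and 690.4 on the E12 arrays. Cdc6, which loads the helicase, fell 4.51-fold, and Pola1, the catalytic subunit of polymerase alpha, 3.95-fold. The helicase subunits Mcm3, Mcm2, Mcm4 and Mcm7 fell 3.91-fold, 3.21-fold, 2.59-fold and 2.16-fold. The P0 replicate 4 values were the highest of the P0 arrays in each of these replication genes.

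Many mitosis genes are known to be controlled through promoter elements that include a CCAAT box bound by NF-Y and a cell cycle homology region close to TTTGAA. The 120 bases before the start of 4 genes that fell are given here because all 4 carry CCAAT. Of the 4, Cks1b alone also carries TTTGAA there. They are RefSeq promoters of GRCm38.p6, 5′ to 3′ on the gene's strand, and capitals mark CCAAT and TTTGAA on either strand (ATTGG and TTCAAA when reversed). The Ccnb2 stretch is chr9:70421555-70421674, minus strand, and holds 3 CCAAT matches.
Ccnb2: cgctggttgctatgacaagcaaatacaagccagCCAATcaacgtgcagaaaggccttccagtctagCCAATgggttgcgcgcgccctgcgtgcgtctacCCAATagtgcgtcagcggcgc
The Cks1b stretch is chr3:89418292-89418411, minus strand, with 2 matches of each motif.
Cks1b: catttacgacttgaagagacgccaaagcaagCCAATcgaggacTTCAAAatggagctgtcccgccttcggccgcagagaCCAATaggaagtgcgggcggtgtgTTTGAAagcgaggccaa
The Aurka stretch is chr2:172370571-172370690, minus strand, with 2 CCAAT matches.
Aurka: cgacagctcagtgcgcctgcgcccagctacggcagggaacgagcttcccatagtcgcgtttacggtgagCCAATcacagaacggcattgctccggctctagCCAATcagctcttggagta
The Ttk stretch is chr9:83834569-83834688, plus strand, with 2 CCAAT matches.
Ttk: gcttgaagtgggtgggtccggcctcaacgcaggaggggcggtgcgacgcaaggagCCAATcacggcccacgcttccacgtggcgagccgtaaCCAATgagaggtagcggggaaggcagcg
In windows from 250 bases before to 50 after the start, CCAAT was found in 34 of 41 mitosis genes with a promoter (82.9%) and in 41.1% of all genes. TTTGAA was found in 28 of the 41 (68.3%) and in 20.2% of all genes. Both strands were searched, and the 2 motifs can share at most 1 base. Of the mitosis genes that fell, 15 of 18 held CCAAT and 12 of 18 TTTGAA, and of those not called, 11 of 14 held each. These are letters in a window, and no binding was measured.

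Regulators of the G1 phase moved in both directions. Cdkn1a, the cyclin-dependent kinase inhibitor p21, rose 11.7-fold, with 1086, 1542 and 1679 at P0 and 138, 182 and 69.2 at E12, and a second probe set rose by 3.14. Of the 28 genes 7 fell, or 11 without P0 replicate 4. Ccnd2, cyclin D2, read 109, 104 and 1309.7 on the P0 arrays and 1465, 1575 and 2712 on the E12 arrays, so that P0 replicate 4 was near the E12 arrays and the other P0 arrays far below. Its adjusted p was 0.0092, against 0.053 without P0 replicate 1 and 0.057 without P0 replicate 3. Cdk4 and Cdk2, the kinases of G1 and S phase, fell 2.28-fold and 2.58-fold, and the pocket proteins Rb1 and Rbl1 2.48-fold and 2.64-fold. Second probe sets of Cdk2 (0.44) and Rb1 (0.80) were not called. Among the 18 genes with symbols that start with Cdc, 9 fell and 0 rose, and among the 16 with Cdk, 5 and 0.

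The stages between showed different timing. Each array's mean over the mitosis list stayed within -0.06 and 0.03 of E12 at E14 and between -0.18 and 0.37 at E16. At E18 it ranged from -0.83 to 0.05, and at P0 from -1.23 to -0.87. Myelin genes were up early, with means of 1.20 to 1.48 at E14 and 1.69 to 2.41 at P0. Fibrillar collagens and other matrix genes were highest at E16, at 0.94 to 1.34, against 0.42 to 0.67 at P0.

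**Figure D3:**
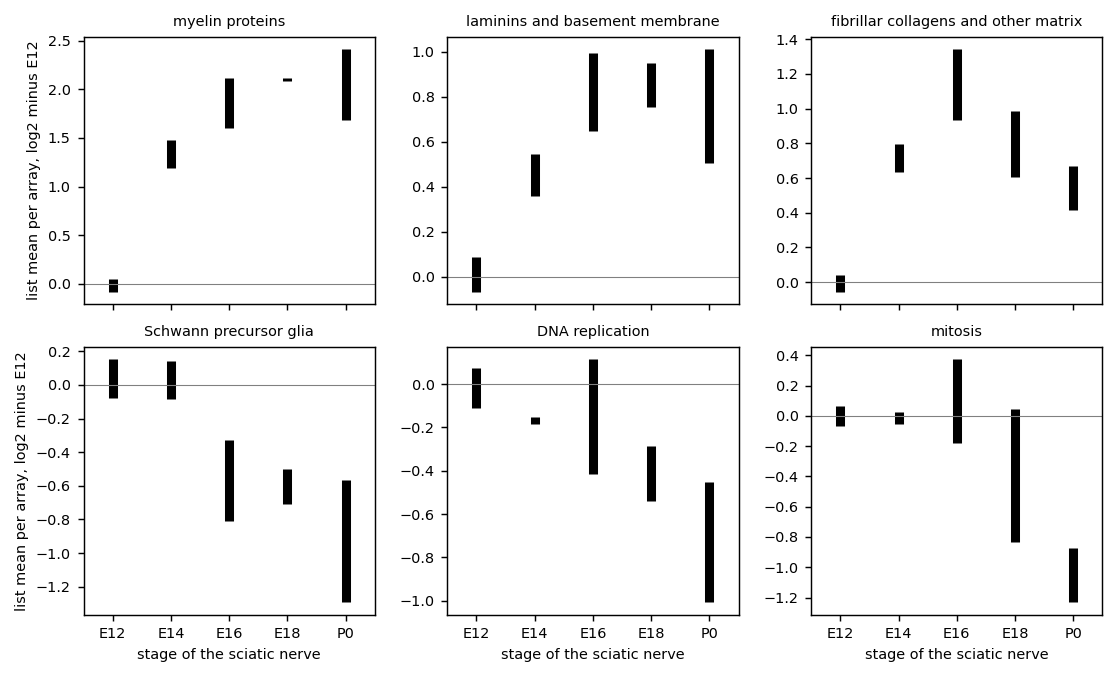
Mean over 6 gene lists on each array (log2 minus the E12 stage mean, vertical axis) at each nerve stage (horizontal axis); each bar runs from the lowest to the highest array of the stage, with 3 arrays per stage and 4 at E16. The mitosis mean lies at -1.23 to -0.87 at P0, below every array of the earlier nerve stages, while the collagen and matrix mean peaks at E16, at 0.94 to 1.34.

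Over all probe sets called between P0 and E12, the median passed through the stages in order. The median of those higher at P0 was 0.37, 0.62, 0.71 and 0.99 above E12 at E14, E16, E18 and P0. That of those lower at P0 was -0.40, -0.71, -0.81 and -1.14. The midpoint between E12 and P0 was first passed at E14 by 150 of the 472 that rose, at E16 by 131, at E18 by 68 and at P0 by 123. For the 1233 that fell the numbers were 329, 420, 210 and 274. Of the 25 largest rises, 17 passed it at E14, and the stage of the highest mean was P0 for 9, E18 for 11 and E16 for 5. Col1a1 was at 3751 ± 896 at E14 and 6721 ± 1200.4 at E16 (SD, n = 3 and 4). Mbp averaged 943 ± 175 at E14, 2751 ± 894 at E16 and 4029 ± 355 at E18 (n = 3, 4 and 3). Cdkn1a averaged 190.5 ± 112 at E14, 391 ± 393 at E16 and 606 ± 231 at E18. Of the 25 largest falls 18 passed the midpoint at E16, and 23 had their highest nerve mean at E12. The E12 level was itself above that of E9.5 in 21 of these 25, and choosing large falls from E12 favours a high E12 level. Vcan, for example, averaged 1407 ± 292 at E9.5, 5067 ± 719 at E12, 3447 ± 459.5 at E14 and 472 ± 245 at E16. Crabp2 and Igf2bp1 had their highest means at E9.5, with 3085 ± 387 and 4099 ± 147, above E12.

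Of 33 chromatin genes 13 fell and 1 rose (median -0.78), or 8 fell without P0 replicate 3 and 6 with the GAPDH covariate. Hmga2, an architectural protein of fetal cells, read 779.8, 190.3 and 747 on the P0 arrays and 2884, 2918 and 3965 on the E12 arrays. The DNA methyltransferases Dnmt1 and Dnmt3a fell 3.84-fold and 4.05-fold, and Ezh2 and Eed, subunits of the Polycomb complex that methylates histone H3, 3.49-fold and 2.49-fold. Lmna, lamin A/C, rose 2.68-fold, and Lmnb2, a B-type lamin, fell 1.43-fold, in calls that several alternative fits lost.

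Lists of splicing factors and chaperones were lower on P0 replicates 1 and 3 and near E12 on replicate 4. For 39 genes of splicing and RNA binding, the list means relative to E12 were -1.03, -0.94 and -0.15 on P0 replicates 1, 3 and 4, and 9 genes fell. For 38 chaperones the means were -1.004, -0.84 and -0.06, and 9 fell. Within lots 1 and 4 the medians were -0.89 and -0.15 for splicing and -1.02 and -0.0045 for chaperones. Without P0 replicate 4 the falls numbered 23 for splicing and 21 for chaperones, without P0 replicate 3 they numbered 4 and 4, and with the GAPDH covariate 3 and 4. The GAPDH ratio was 7.69 and 6.80 on replicates 1 and 3 and 4.69 on replicate 4, and its part in these falls beyond that fit was not tested. Hspa4, of the Hsp70 family, read 609, 621 and 1499.7 on the P0 arrays and 3187, 3190.3 and 3511 on the E12 arrays. Its other probe sets were not called, with changes of -0.38 to 0.14. Hsp90aa1, a cytosolic Hsp90, read 1642, 2345 and 3692 on the P0 arrays and 6304, 6344 and 6124 on the E12 arrays. Srsf6, a splicing factor, read 1045, 1502 and 3199 on the P0 arrays and 4075, 3837 and 3943 on the E12 arrays. Of 31 genes of ribosome biogenesis 3 fell (12 without P0 replicate 4), and of 27 ribosomal proteins 1, Rpl13a, with list means of -0.43, 0.11 and 0.03. Of 40 genes of oxidative phosphorylation 1 fell, Ndufc1, at 2.15-fold, and 12 without P0 replicate 4. In glycolysis 3 of 20 fell, Pdk1, Pgam1 and Pgk1, by 2.57-fold, 2.11-fold and 1.89-fold, and Eno2 rose 1.74-fold. Without P0 replicate 4, 8 genes of glycolysis fell.

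**Figure D4:**
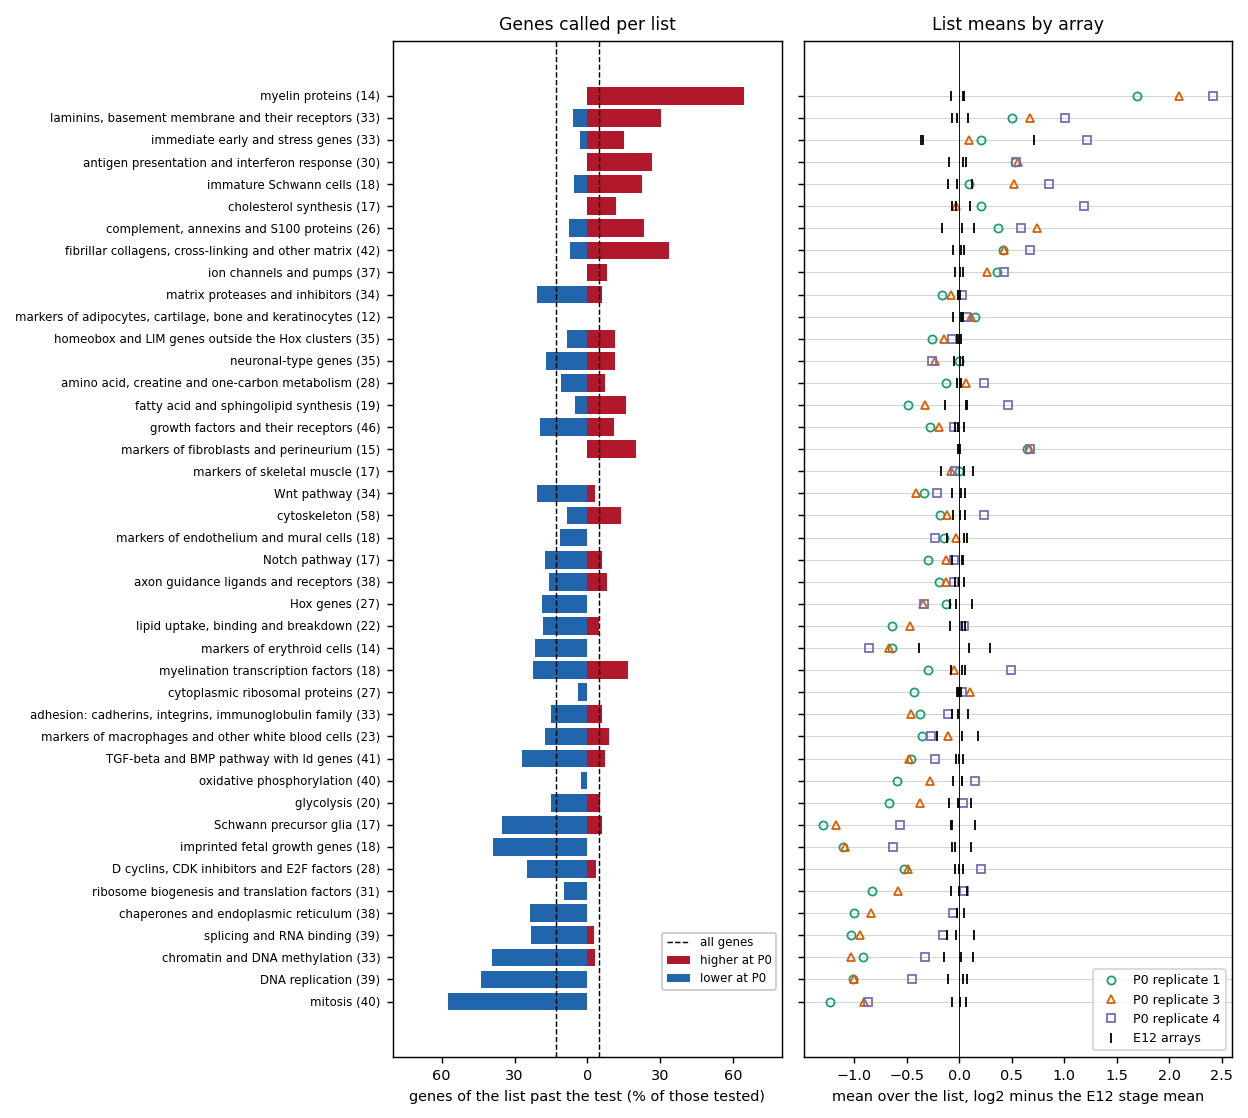
Left, share of each list's tested genes (number in brackets) past the test, higher at P0 to the right in red and lower at P0 to the left in blue; dashed lines are the shares among all genes, 4.72% and 12.9%. Right, mean over the list on each P0 array and each E12 array, as log2 minus the E12 stage mean. Mitosis, DNA replication and myelin proteins are far from E12 on all P0 arrays, while splicing, chaperones and glycolysis are low on P0 replicates 1 and 3 only; lists with under 12 genes tested are not drawn.

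Genes of antigen presentation and interferon response rose in 8 and fell in 0 of 30. Their means relative to E12 were alike on the P0 arrays, at 0.53, 0.56 and 0.54. H2-Aa, a class II chain, read 487, 633 and 1104 on the P0 arrays and 189, 180.1 and 271 on the E12 arrays. Tap1, which carries peptides into the endoplasmic reticulum, read 151, 299 and 147 on the P0 arrays and 59.3, 55.6 and 32.1 on the E12 arrays, and its second probe set was not called (0.07). Igtp, an interferon-induced GTPase, rose 2.73-fold, Irf1 3.31-fold, B2m, the light chain of class I molecules, 1.64-fold and H2-D1 1.81-fold. Class I genes are alike in sequence, so the H2-D1 value is uncertain as to the gene. The classical markers of white blood cells did not rise as a list. Of 23, 4 fell (Ctss, Laptm5, Fcgr3 and Csf1r) and 2 rose (S100a9 and Cd3e), beside 12.9% and 4.72% of all genes. The summed index of the list was 4054 to 6060 at P0 and 5010 to 7909 at E12, and Lyz2 was at the floor on all arrays of both stages. Ctss, cathepsin S, read 25.1, 18.7 and 28.8 on the P0 arrays and 1719, 850.0 and 222 on the E12 arrays, with an E12 spread of several fold.

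Of 26 genes of complement, annexins and S100 proteins 6 rose and 2 fell. S100a6 read 1245, 3454 and 3112 on the P0 arrays and 194, 136 and 67.2 on the E12 arrays (at least 19.5-fold). S100a4 read 1161, 738 and 724 on the P0 arrays and 259, 311 and 248 on the E12 arrays. Anxa1 rose at least 12.1-fold on the probe set with the largest change and by 3.35 on a second, while another was not called (0.65). Anxa2 rose 2.46-fold, with P0 replicate 1 close to the E12 arrays. C1qc, of complement, and Anxa3 fell at least 3.15-fold and at least 2.34-fold, and several alternative fits lost the call of Anxa3.

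Among 33 immediate early and stress genes 5 rose and 1 fell. Gadd45b, a stress-induced inhibitor of growth, read 903, 2897 and 1905 on the P0 arrays and 475, 363 and 108 on the E12 arrays, a rise of 6.44-fold. Atf3, a stress-induced transcription factor, read 2586, 4975 and 3304 on the P0 arrays and 1902, 1401 and 302 on the E12 arrays, and its second probe set was not called (0.15). Cebpd rose 5.40-fold and Zfp36 3.10-fold, and Egr2 belongs to this list too. The E12 arrays were themselves uneven here, with E12 replicate 1 highest for Atf3 and Cebpd and replicate 4 lowest. The median of the list was -0.22 within lot 1 and 0.79 within lot 4, so its direction differed between the lots.

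Cytoskeletal genes rose in 8 and fell in 5 of 58, beside 4.72% and 12.9% of all genes. Ezr, ezrin, which ties actin to the membrane of Schwann cell microvilli, read 732, 1022 and 2024 on the P0 arrays and 195, 186 and 160.0 on the E12 arrays. Capg, a capping protein, rose 4.70-fold and Ahnak, a large scaffold protein, 2.94-fold. Myl9, a myosin light chain, and Cnn2, a calponin, fell 4.57-fold and 3.51-fold. Without P0 replicate 4, 11 genes fell, and without P0 replicate 3, 4 rose and 2 fell. Of 37 ion channels and pumps 3 rose and 0 fell: Kcna1, an axonal type of potassium channel, by 2.77-fold, Gria2, an AMPA receptor subunit, by at least 6.79-fold, and Fxyd1. Gria2 read 299, 305 and 1744 on the P0 arrays and 47.9, 97.6 and 76.2 on the E12 arrays, and its second probe set was not called (0.86). Of 35 genes usually called neuronal, 6 fell and 4 rose, beside 12.9% and 4.72% of all genes. Ddc, the decarboxylase that makes dopamine and serotonin, read 115, 59.9 and 89.4 on the P0 arrays and 1004, 629 and 1107 on the E12 arrays. Scg3, a granin, rose 5.30-fold, while its second probe set was not called (0.46). None of 9 markers of neurons was called, and Elavl4, Isl1, Snap25 and Syt1 were at the floor on all arrays of both stages.

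Genes were also grouped by the letters their symbols start with. Of 129 such stems with 8 or more genes, 2 had at least 30% of members higher at P0, Col and Capn, and 16 had at least 30% lower. Capn5, Capn6 and Capn3, calpains, rose 3.85-fold, 2.72-fold and 1.40-fold. These are 3 of 8 tested, and 7 alternative fits lost the Capn3 call, the GAPDH covariate among them (adjusted p 0.16). Of 14 sorting nexins 6 fell, led by Snx1 with 209.7, 291 and 583 at P0 and 1092, 1306 and 1705 at E12. Of 23 ubiquitin conjugation genes with the stem Ube 7 fell, of 11 with Dnajc 5, of 10 mitochondrial import genes with Timm 4, of 9 SR splicing factors with Srsf 4, and of 13 tyrosine phosphatases with Ptpn 5. With the GAPDH covariate 5 of the 6 Snx calls were lost, as were 5 of the 7 Ube, 3 of the 5 Dnajc and 3 of the 5 Ptpn calls, and all 4 each of Timm and Srsf. Snx6 read 996, 1269 and 2408 on the P0 arrays and 2505, 2484 and 2429 on the E12 arrays, so that P0 replicate 4 lay near E12, as in Timm8a1 and Ptpn13. Caspases moved both ways, with 4 lower and 2 higher of 9. Casp8ap2, a caspase-8-associated protein that shares the stem, and Casp6 fell 3.67-fold and 3.05-fold, and Casp12 and Casp9 rose at least 3.38-fold and 1.85-fold. The other 3 Casp9 probe sets were not called (0.09 to 0.16), and 8 alternative fits lost the call. At least 1 other probe set was not called either for Scd1, Scd2, Fdps, Itga7, Sema3b, Cux1, H2-D1, Capg, Tyrp1, Capn3 and Capn6, with changes of 0.13 to 1.22. The same held for Yap1, Cdk4, Nectin3, Smad1, Fzd3, Grb10 and Col18a1, with changes of -1.26 to 0.02.

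Of the 5 globin genes with values in the marker list 3 fell. Hbb-y, an embryonic beta-type globin, read 193, 173 and 149 on the P0 arrays and 4251, 6192 and 1344 on the E12 arrays. Hba-x, the embryonic alpha-type globin, read 36.3, 39.5 and 26.4 on the P0 arrays and 552, 1548 and 184 on the E12 arrays. The adult gene Hbb-b2 fell at least 5.04-fold. Hba-a1 and Hbb-bh1 did not pass the test, with log2 changes of -0.65 and 0.09 and adjusted p of 0.27 and 0.85. The globins of 1 cluster are near-identical in places, so their probe sets may share signal. Of 14 erythroid markers 3 fell, and the summed index was 3737 to 4458 at P0 and 5220 to 13142 at E12. Gata1, the master regulator of red cells, read 435, 414 and 388 on the P0 arrays and 386, 327 and 321 on the E12 arrays, with an adjusted p of 0.21. Endothelial and mural markers held 2 falls of 18 (Notch3 and Tagln), beside 12.9% of all genes. Their sums were 3477 to 4334 at P0 and 3765 to 4305 at E12. Muscle markers gave 0 calls of 17, with sums of 5252 to 6232 at P0 and 5122 to 6525 at E12. Of 7 melanocyte markers Tyrp1 rose 1.52-fold, and Tyr was at the floor on all arrays of both stages.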

How the data were processed

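RNA of sorted green fluorescent cells was measured on 19 arrays of 6 stages, of which 3 P0 and 3 E12 arrays were compared. The deposited values are expression indices on a linear intensity scale. Per the labels' protocols, the authors normalized the arrays with the smoothing spline of dChip, estimated probe sensitivities from 18 arrays and computed model-based indices. Its version and the array that did not enter the sensitivities are not given in the sources used here. Those choices can shift low indices most, as can the 2 rounds of amplification.

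Probe sets were named by the array's annotation: of 12488, 66 were controls and were left out, 10833 had 1 symbol, 396 several and 1193 none. The last 2 kinds were tested and counted without a name. Indices below the 25th percentile (68.5) were set to it and log2 was taken. Probe sets above it on at least 3 arrays, 10414, were fitted over all 19 arrays by limma 3.58.1 in R 4.3.3 (lmFit, then eBayes), with stage means as coefficients and 13 residual degrees of freedom. The contrast was P0 minus E12, the p-values were 2-sided and Benjamini-Hochberg adjusted, and the threshold was 0.05. The scripts were tested on simulated data. The number of arrays limits the precision.

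Lists, in total 44 with the marker lists, used 1 probe set per gene, that with the highest mean. The list members, like the choice of this comparison, were settled with earlier results of these data known. Named were the 25 largest rises and falls with 1 symbol, a call and no overlap between the stages, each by its probe set of largest change. To these were added up to 10 genes switched on or off, called members of the lists, and members of symbol families. Promoters are from RefSeq. Lot numbers were checked for pairing: the deviations from the stage means had r = 0.07 for the 2 arrays of lot 1 and 0.18 for those of lot 4, and a mean of 0.04 over 39 pairs of the same lot and -0.02 over 111 of different lots. Alternatives covered the floor, the filter, the normalization, lots, array weights, the GAPDH ratio and each array left out.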

Additional observations from a re-analysis of the deposited data

Results flagged for a closer look

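The control probe set for the B1 repeat, a short interspersed element of the mouse genome, lies outside the comparison of genes. It read 11721.5 on P0 replicate 1, 1937 on P0 replicate 3 and 1784.5 on P0 replicate 4, against 2937, 3273 and 1702 on the E12 arrays. It stood out because 1 P0 array exceeded every E12 array. E16 replicates 1 and 2 read 10812 and 10102, and these 3 arrays share lot 1, as do E14 replicate 1 and E18 replicate 1, which read 1694 and 1680.5. Without the lot 1 arrays of E16 and P0, 494 probe sets were higher at P0 and 898 lower, against 472 and 1233 with them.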

How the results depend on the processing

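Of 1705 probe sets called (472 higher at P0, 1233 lower), the count changed most with the arrays used. A fit of the 6 arrays alone called 430 (125 higher, 305 lower), 417 of them among the 1705, and 2344 had an unadjusted p under 0.05. Array weights gave 2911 (815 higher, 2096 lower). Leaving out 1 array at a time gave 1064 to 2794 in all, 300 to 674 higher and 764 to 2120 lower; the lowest were without E12 replicate 2, the highest without P0 replicate 4. Quantile normalization gave 756 higher and 1109 lower, with a median change of all probe sets of 0.066 against -0.016, and the GAPDH covariate 554 higher and 655 lower. The cause of these changes was not tested. With lot as a block the count was 1817 (508 and 1309) and with the replicate block 1870 (508 and 1362). Floors, filter, pseudocount, trend and lot as a random block kept the total within 1.5 times. Of 309 called genes among the largest changes, the switched genes and the lists, 126 were called in all 20 alternatives and 0 reversed. Of the same 309, 175 were lost with the 6 arrays alone, 74 with the GAPDH covariate and 10 with the replicate block. Genes named only by their symbol stem were outside this count. Among them, Timm8a1 fell in the main fit (log2 change -1.085) but was higher at P0 within lot 4 (0.26). Of 968 list medians under the alternatives, 102 moved by more than the spread between replicates. Values at the floor give bounds only, so changes of dim genes are understated.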
